A study of Mus musculus with 6 samples.

Results

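The genes of intestinal iron absorption and ferritin storage were followed by their symbols through the count tables of 6 single-cell RNA-seq libraries: Slc11a2, Cybrd1, Slc40a1, Heph, Tfrc, Fth1 and Ftl1, 7 of the 32285 genes listed. Each was quantified as raw UMIs (unique molecular identifiers, which count captured mRNA molecules once) summed over the cells of a class and scaled to the UMI total of that class (CPM, counts per 1e6). Dietary non-haem iron is reduced at the brush border, for which Cybrd1 (Dcytb) is the classical reductase, and is carried into the enterocyte by Slc11a2 (DMT1). Iron that is not needed is held in ferritin, a shell built of Fth1 (heavy) and Ftl1 (light) subunits. The remainder leaves across the basolateral membrane through Slc40a1 (ferroportin), the only known iron exporter, with Heph (hephaestin) oxidising it for transfer to transferrin. Tfrc, the transferrin receptor, brings transferrin-bound iron in from the blood and is typical of dividing cells. Iron absorption is best known from the duodenum, whereas the tissue here was jejunum.

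The libraries came from jejunal epithelium of male wildtype C57BL/6J mice, about 30 weeks old. The mice had been fed a low-fat diet (LFD) or a high-fat diet (HFD) for 16 weeks before surgery. LFD mice received sham surgery (LFD sham), and HFD mice received sham surgery (HFD sham) or vertical sleeve gastrectomy (HFD VSG), a bariatric operation that removes most of the stomach. After surgery the mice were returned to their diet. Tissue was taken 5 weeks after surgery, following an overnight fast, and separated into a crypt and a villus fraction. Each library pooled cells of 3 LFD sham, 3 HFD sham or 2 HFD VSG mice, so each group and fraction was 1 library, mice within a pool could not be told apart, and no difference between groups could be tested. Differences were instead described by size, with 95% intervals (exact, from the counts) that cover counting error only.

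Of 59457 called barcodes, 24241 passed the filters, with 3026 to 4785 cells and a median of 8264.5 to 30431.5 UMIs per cell in a library. The HFD VSG villus-labelled library was the deepest. Classes were named from fixed markers, after the iron genes had been taken out of the clustering genes, and carry the suffix "-like". The 14 enterocyte markers summed to between 75450 and 110420 CPM in enterocyte-like cells, which numbered 884 to 2680 per library. The libraries labelled crypts did not hold the crypt cell types in excess: stem-like cells made up 1.13% to 2.90% of them and 2.94% to 10.2% of the villus-labelled libraries. They are therefore called crypt-labelled and villus-labelled. The HFD sham villus-labelled library held 5 immune-like cells, against 71 to 533 in the others, and 27.6% to 34.0% of cells fell in unnamed clusters, which either met no class or met one but were led by genes of damaged droplets. Pairs of libraries shared 1 to 11 barcodes among the cells kept.

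Of the 7 genes, 4 carry an iron-responsive element (IRE) of the strict form in their transcripts (GENCODE M21, GRCm38). This hairpin is bound by iron regulatory proteins when iron is low, which blocks translation when the hairpin lies in the 5′ UTR and protects the mRNA from decay when it lies in the 3′ UTR. The search asked for a CAGTGN loop flanked by 5 base pairs with an unpaired C below them, and the 30-base windows are shown, loop in capitals, because they separate members whose mRNA level is a target of this system from those regulated at translation.
Fth1 5′ UTR: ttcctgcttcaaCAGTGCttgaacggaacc
Ftl1 5′ UTR: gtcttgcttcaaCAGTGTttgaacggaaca
Slc40a1 5′ UTR: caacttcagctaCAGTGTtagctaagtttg
Tfrc 3′ UTR, first: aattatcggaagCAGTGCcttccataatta
Tfrc 3′ UTR, the second: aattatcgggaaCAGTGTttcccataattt
Tfrc 3′ UTR, the third: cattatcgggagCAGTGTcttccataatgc
Tfrc 3′ UTR, the fourth: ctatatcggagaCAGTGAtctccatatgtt
The Tfrc windows are numbered in alphabetical order of their bases, and the numbers give no position along the UTR. Such hairpins were found in a UTR of 159 of 21630 protein-coding genes searched (0.735%). Slc11a2, Cybrd1 and Heph had none of this form, which says only that these letters and pairs were not found in their annotated UTRs. UMI counts measure mRNA only, so the translational arm of this control is outside the measurement.

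The genes lie on separate chromosomes of GRCm38: Slc40a1 at chr1:45908068-45926523, Cybrd1 at chr2:71117923-71142926, Ftl1 at chr7:45457944-45459884, Slc11a2 at chr15:100387898-100425072, Tfrc at chr16:32608920-32632794, Fth1 at chr19:9980598-9985098 and Heph at chrX:96455359-96574485. Ftl1 counts are uncertain because the retrocopy Ftl1-ps1 is 99.6% identical over the 549 coding bases, and 62.0% of 90-base windows of Ftl1, or 40.2% in its last 400 bases, where 3′ reads fall, occur unchanged in it, so reads that match both could be lost or split. Ftl1-ps1 itself drew 0.73% to 4.09% as many UMIs as Ftl1 across classes and libraries.

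Slc11a2, the apical iron importer, was read in every class and was highest by median in enterocyte-like cells. Its level there was 23.7 CPM in LFD sham, 28.0 CPM in HFD sham and 32.1 CPM in HFD VSG crypt-labelled cells. In the villus-labelled libraries it was 21.6, 26.7 and 32.7 CPM in the same order. Thus the order LFD sham, HFD sham, HFD VSG held in both fractions. Cycling progenitor-like cells followed at 18.1 to 27.6 CPM and were below enterocyte-like cells in 5 of 6 libraries, while Paneth-like cells were lowest at 1.91 to 6.38 CPM, below every other class in each library. Immune-like cells, at 13.9 to 21.4 CPM, goblet-like cells, at 10.8 to 22.2 CPM, tuft-like cells, at 9.11 to 24.1 CPM, and stem-like cells, at 11.9 to 21.6 CPM, overlapped one another. A Slc11a2 UMI was seen in 22.6% to 66.2% of enterocyte-like cells and in 5.25% to 9.86% of immune-like cells, whose median depth was far lower (3156 to 6028 against 12230 to 34682 UMIs). After thinning each cell to 1500 UMIs the shares were 2.32% to 4.87% and 2.44% to 3.45%, so the shares did not set enterocyte-like cells apart. Cell-free droplets (barcodes under 100 UMIs, which sample free RNA) held 13.3 to 27.5 CPM of Slc11a2, in the LFD sham crypt-labelled library more than the enterocyte-like cells. The counting does not separate the transcript ends of Slc11a2 with and without its known IRE.

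Cybrd1, the reductase, gave at most 5 UMIs in the enterocyte-like cells of a library and was read mainly in Paneth-like cells. Enterocyte-like cells gave 1, 0 and 3 Cybrd1 UMIs in the LFD sham, HFD sham and HFD VSG crypt-labelled libraries, and 5, 1 and 2 in the villus-labelled ones. For the HFD sham crypt-labelled library, 0 of 1693 cells allows a share of up to 0.177% of cells with a UMI (3 counts of the total), which is no limit on cells that express the gene. Paneth-like cells, the antimicrobial cells of the crypt base, held 14.8, 18.0 and 13.5 CPM in the crypt-labelled and 11.49, 13.4 and 15.6 CPM in the villus-labelled libraries, again in the order LFD sham, HFD sham, HFD VSG. The 6 values lay close together, and their counting intervals overlapped: the lowest ran from 9.08 to 14.3 CPM and the highest from 9.28 to 31.4 CPM. Paneth-like cells, 0.794% to 5.64% of the cells kept, carried 76.0% to 100% of all Cybrd1 UMIs in a library. A UMI was present in 16.0% to 37.5% of them (11 of 63, 8 of 29, 9 of 38, 57 of 152, 34 of 213 and 17 of 46 cells), and no cell supplied more than 25.0% of a library's Paneth-like UMIs. In immune-like cells the share was 0% to 0.249%, and cell-free droplets held 0 to 1.06 CPM. Goblet-like cells, the neighbouring secretory class, reached at most 0.546 CPM, and no Cybrd1 UMI was found in enteroendocrine (EEC)-like cells.

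**Figure D1:**
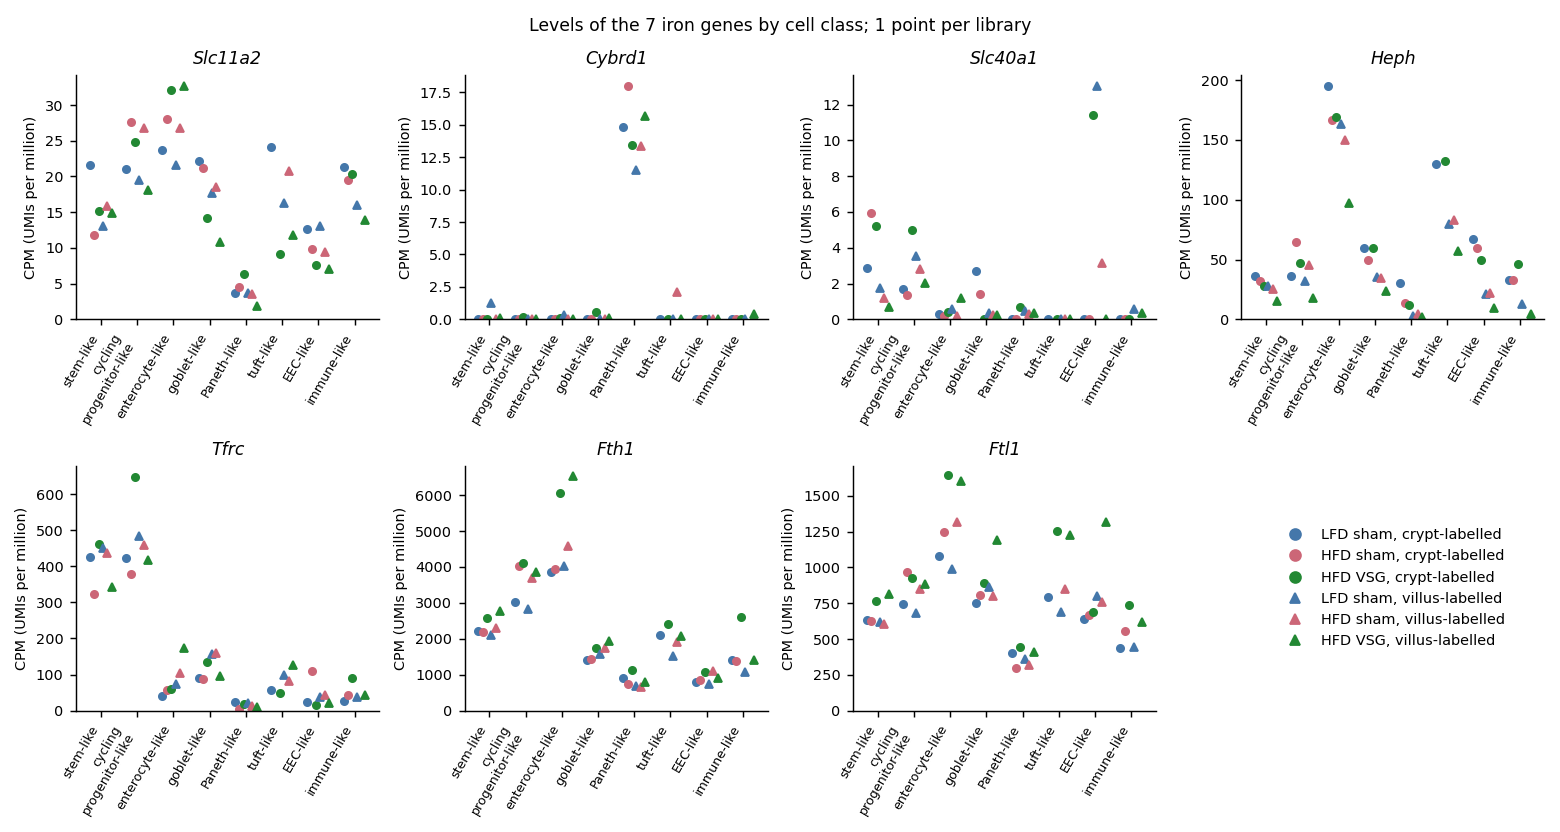
CPM of the 7 genes (1 panel each, vertical axes from 0 and scaled separately) in 8 marker-named classes, with 1 point per library, coloured by group and shaped by fraction. Cybrd1 stands at 11.49 to 18.0 CPM in Paneth-like cells and near 0 elsewhere, Heph peaks in enterocyte-like cells, and Tfrc peaks in stem-like and cycling progenitor-like cells.

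Slc40a1, the exporter, was barely detected in these cells. Enterocyte-like cells gave 9, 4 and 20 UMIs in the crypt-labelled libraries of LFD sham, HFD sham and HFD VSG, or 0.309, 0.196 and 0.429 CPM. The villus-labelled libraries gave 9, 4 and 38 UMIs, or 0.590, 0.1996 and 1.21 CPM. Between 0.236% and 3.51% of enterocyte-like cells had a UMI, against 0% to 0.249% of the shallower immune-like cells, and after thinning to 1500 UMIs the shares were 0% to 0.172% and 0% to 0.188%. Enterocyte-like values lay below those of cell-free droplets in 5 of 6 libraries, so the level in these cells is not told apart from background. Cycling progenitor-like cells ranged from 1.34 to 5.00 CPM, above enterocyte-like cells in 6 of 6 libraries. Stem-like cells ranged from 0.664 to 5.94 CPM over 2 to 11 UMIs a library, above enterocyte-like cells in 5 of 6 and below them in the HFD VSG villus-labelled library. The cell-free droplets held 0 to 1.75 CPM, below the cycling progenitor-like cells of the same library in 6 of 6 and below the stem-like cells in 5 of 6 libraries. The droplets of a library held only 1801243 to 4593178 UMIs of all genes, so these orders, and that of the enterocyte-like cells, rest on few Slc40a1 UMIs. EEC-like cells held 0, 0, 3, 5, 1 and 0 UMIs over 22 to 44 cells, too few to place. In the HFD VSG villus-labelled library, 55.5% of Slc40a1 UMIs came from clusters without a class, mainly a cluster of 799 cells at 4.20 CPM (126 UMIs). That cluster (3252 cells over all libraries, led by Ms4a18 and Car4) carried enterocyte markers at 30242 CPM in that library, fewer than the enterocyte-like cells. In it Slc40a1 ranged from 0.137 CPM in HFD sham to 1.93 CPM in HFD VSG among crypt-labelled libraries, and from 0.962 to 4.20 CPM among villus-labelled ones, again lowest in HFD sham and highest in HFD VSG.

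Heph, the ferroxidase that works with the exporter, was highest in enterocyte-like cells. It stood at 195, 167 and 169 CPM in the LFD sham, HFD sham and HFD VSG crypt-labelled libraries. In the villus-labelled libraries it stood at 163, 150 and 97.2 CPM. The HFD VSG villus-labelled library was the low one, and the other 5 lay within 150 to 195 CPM. Tuft-like cells followed at 56.8 to 132 CPM, below enterocyte-like cells in 5 of 5 libraries and above goblet-like cells, at 23.8 to 60.03 CPM, in 5 of 5. Goblet-like and cycling progenitor-like cells (18.2 to 65.1 CPM) overlapped, and Paneth-like cells were last at 2.29 to 30.5 CPM. Cell-free droplets held 33.0 to 120 CPM, lower than the enterocyte-like cells of the same library in all 6. Thinned to 1500 UMIs, 13.2% to 24.7% of enterocyte-like cells kept a Heph UMI, against 0.746% to 7.04% of immune-like cells.

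Tfrc was highest, among named classes, in the stem-like and cycling progenitor-like cells. The latter class also holds early progenitors: the larger of its 2 clusters (1638 and 611 cells) met 10 of 10 early progenitor markers beside 9 of 10 of cycling cells, and at resolution 0.8 a cluster of 1138 cells met the early progenitor list alone. Cycling progenitor-like cells held 424, 379 and 646 CPM in the crypt-labelled and 485, 459 and 418 CPM in the villus-labelled libraries of LFD sham, HFD sham and HFD VSG. Stem-like cells held 425, 325 and 463 CPM, and 451, 437 and 342 CPM, so the ranges of both classes overlapped, with cycling progenitor-like cells higher in 5 of 6 libraries. Every other named class was lower in each library. Goblet-like cells came next by median, at 87.5 to 159 CPM, but lay below enterocyte-like cells in the HFD VSG villus-labelled library. The larger goblet-like cluster (1008 cells) also met 10 of 10 markers of cycling cells, as did the stem-like cluster. The other goblet-like cluster (381 cells) had a depth of 0.29 of the library median. The part of dividing or shallow cells in the goblet-like Tfrc level was not tested. Enterocyte-like cells held 40.4, 56.8 and 60.4 CPM in the crypt-labelled and 73.6, 103 and 173 CPM in the villus-labelled libraries. The ratio of cycling progenitor-like to enterocyte-like cells was therefore 10.7-fold at most, in the HFD VSG crypt-labelled library, and 2.41-fold in the HFD VSG villus-labelled one. In the unnamed cluster led by Ms4a18, Tfrc lay at 136 to 298 CPM in 5 libraries, between the enterocyte-like and stem-like cells of the same library, and at 412 CPM in the HFD VSG villus-labelled one, above its stem-like cells and close to its cycling progenitor-like cells. Enterocyte-like values lay near those of cell-free droplets, which were 34.9 to 176 CPM, and the part of free RNA in the enterocyte-like level was not tested. Subtracting a free RNA share taken per library from the study left the enterocyte-like range at 40.4 to 173 CPM.

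Fth1, the ferritin subunit with ferroxidase activity, was read in 87.9% or more of the cells of every class. Enterocyte-like cells held 3848, 3954 and 6052 CPM in the LFD sham, HFD sham and HFD VSG crypt-labelled libraries and 4034, 4586 and 6522 CPM in the villus-labelled ones. Both HFD VSG libraries lay above all 4 sham libraries. Cycling progenitor-like cells held 2834 to 4119 CPM, lower than enterocyte-like cells in 5 of 6 libraries, and stem-like cells 2103 to 2777 CPM, lower than cycling progenitor-like cells in 6 of 6. EEC-like and Paneth-like cells were lowest, at 753 to 1106 and 656 to 1133 CPM, and overlapped. Cell-free droplets held 2010 to 5478 CPM, and subtraction of free RNA left 0 CPM in the Paneth-like cells of the HFD sham crypt-labelled library.

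Ftl1, the subunit that stabilises the iron core, followed a flatter order. Enterocyte-like cells held 1083, 1249 and 1642 CPM in the crypt-labelled and 990, 1316 and 1604 CPM in the villus-labelled libraries, LFD sham lowest and HFD VSG highest in each. Cycling progenitor-like (679 to 969 CPM), tuft-like (690 to 1253 CPM), goblet-like (748 to 1189 CPM) and EEC-like cells (642 to 1315 CPM) overlapped one another, and Paneth-like cells were lowest at 295 to 446 CPM. The ratio of Fth1 to Ftl1 UMIs is read only between classes, as reads that match both Ftl1 and Ftl1-ps1 could be lost or split. It was 4.07 to 4.45 in cycling progenitor-like cells, 3.17 to 4.07 in enterocyte-like cells and 3.36 to 3.78 in stem-like cells. It was 1.63 to 2.16 in goblet-like, 0.693 to 1.58 in EEC-like, 1.92 to 2.54 in Paneth-like and 1.69 to 2.65 in tuft-like cells. The goblet-like, EEC-like and Paneth-like cells thus lay below the enterocyte-like, stem-like and cycling progenitor-like cells in all 6 libraries. Tuft-like cells did so in each library where they were counted. The HFD VSG villus-labelled library gave the lowest ratio in goblet-like, tuft-like, EEC-like and immune-like cells, but no difference between libraries is read from it.

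The comparison of HFD sham with LFD sham set the diets against each other under sham surgery. The free RNA shares stated by the study were higher in both HFD sham libraries than in the other libraries. Subtracting them took the enterocyte-like crypt-labelled total from 20369698 to 14800866 UMIs in HFD sham and from 29134347 to 28260637 in LFD sham. The part of free RNA in the ratios below was not tested beyond this subtraction. In enterocyte-like cells, 5 members (Slc11a2, Heph, Tfrc, Fth1 and Ftl1) had a mean of at least 50 UMIs over the 3 libraries of each fraction, so 10 of 14 pairs of gene and fraction were counted, and Cybrd1 and Slc40a1 were not. None of the 10 passed a log2 ratio of 0.5 in either direction, against 13.3% of all 18810 pairs of gene and fraction. Tfrc came closest, with log2 ratios of 0.49 (0.37 to 0.61) in the crypt-labelled and 0.48 (0.38 to 0.59) in the villus-labelled libraries, just inside the limit. Ftl1 was higher by 0.21 (0.18 to 0.23) and 0.41 (0.38 to 0.44), and Slc11a2 by 0.24 (0.08 to 0.40) and 0.31 (0.10 to 0.51). Heph was lower, at -0.22 (-0.29 to -0.16) and -0.12 (-0.20 to -0.05). After subtraction of free RNA, Tfrc stood at 0.68 and 0.52 and passed the limit in both fractions, and Heph at -0.05 and -0.01. Over 14 processing alternatives Tfrc lay between 0.20 and 1.16 in the crypt-labelled and between 0.18 and 0.70 in the villus-labelled libraries, and passed the limit in 7 of them in each fraction.

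The comparison of HFD VSG with HFD sham set surgery against sham surgery on the same diet. It took 4 of 10 counted pairs beyond 0.5, against 21.1% of all pairs. The background differed by fraction: 6.79% of genes were higher and 2.37% lower in the crypt-labelled libraries, and 17.0% and 16.5% in the villus-labelled ones, which held 3 of the 4 pairs. Fth1 was higher in both fractions, with log2 ratios of 0.61 (0.60 to 0.63) in the crypt-labelled and 0.51 (0.50 to 0.52) in the villus-labelled libraries, and passed 0.5 in 10 and 8 of 14 processing alternatives. Tfrc was higher in the villus-labelled libraries only by this limit, at 0.75 (0.68 to 0.82), and stood at 0.09 (-0.01 to 0.19) in the crypt-labelled ones. Heph was lower in the villus-labelled libraries, at -0.63 (-0.70 to -0.55), and stood at 0.02 (-0.04 to 0.08) in the crypt-labelled ones. Ftl1 was higher by 0.39 (0.37 to 0.41) and 0.29 (0.26 to 0.31), and Slc11a2 by 0.20 (0.06 to 0.34) and 0.29 (0.14 to 0.44). With free RNA subtracted, Fth1 lay inside the limit, at 0.46 and 0.41, and 2 pairs were left. The subtraction acted mostly on the HFD sham side, for which the study stated the larger shares. Crypt-labelled enterocyte-like totals went from 20369698 to 14800866 UMIs in HFD sham and from 46606131 to 44975320 in HFD VSG. Free RNA differed between the groups as well, and its part in the Fth1 difference beyond this subtraction was not tested: Fth1 in cell-free droplets was 5478 and 4698 CPM in the HFD VSG libraries and 2010 to 2705 CPM in the 4 sham libraries.

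The comparison of HFD VSG with LFD sham took 8 of 10 counted pairs beyond 0.5, against 27.7% of all pairs. By fraction, 10.6% of genes were higher and 4.80% lower in the crypt-labelled libraries, and 21.4% and 19.0% in the villus-labelled ones. Of these, 7 were higher and 1 was lower. Tfrc was higher by 0.58 (0.48 to 0.68) in the crypt-labelled and 1.23 (1.14 to 1.33) in the villus-labelled libraries. Fth1 was higher by 0.65 (0.64 to 0.66) and 0.69 (0.68 to 0.71), and Ftl1 by 0.60 (0.58 to 0.62) and 0.70 (0.67 to 0.72). In the crypt-labelled libraries these values moved with the processing. Over 14 alternatives Tfrc ranged there from 0.24 to 1.59 and passed the limit in 12, Fth1 from 0.47 to 0.94 with 12, and Ftl1 from 0.39 to 0.81 with 11. In the villus-labelled libraries Tfrc, Ftl1 and Heph passed in 14 of 14, Fth1 in 13 and Slc11a2 in 12. Slc11a2 was higher by 0.60 (0.42 to 0.78) in the villus-labelled libraries and by 0.44 (0.30 to 0.57) in the crypt-labelled ones, inside the limit. Heph was lower by the limit only in the villus-labelled libraries, at -0.75 (-0.83 to -0.67), and stood at -0.20 (-0.25 to -0.15) in the crypt-labelled ones. The 2 comparisons with LFD sham share its libraries, and the 2 comparisons with HFD sham share those, so their values are not independent of each other. The median log2 ratio over all genes was 0.10 in the crypt-labelled libraries here and 0.11 in those of HFD VSG against HFD sham.

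**Figure D2:**
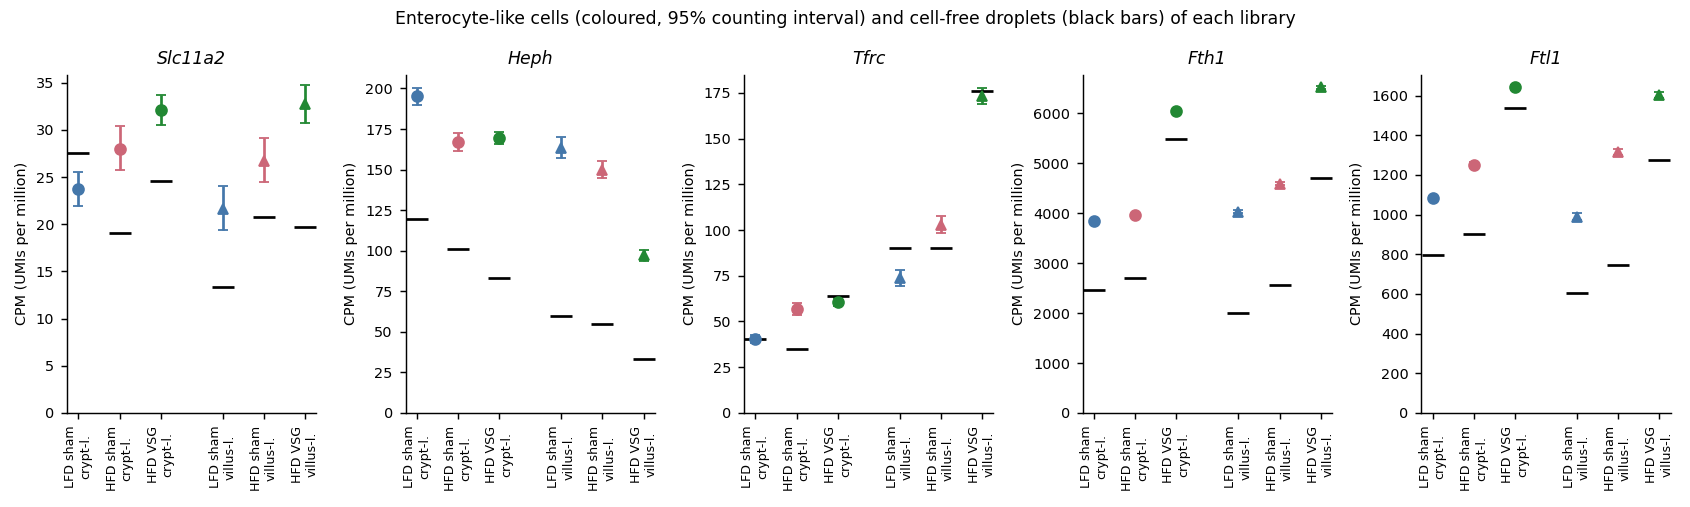
CPM of 5 genes in enterocyte-like cells of each library (coloured points, 95% counting intervals) and in the cell-free droplets of the same library (black bars), crypt-labelled libraries (crypt-l.) left and villus-labelled (villus-l.) right in each panel, vertical axes from 0. Fth1 and Ftl1 are highest in both HFD VSG libraries, and the Tfrc points lie close to the bars.

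**Figure D3:**
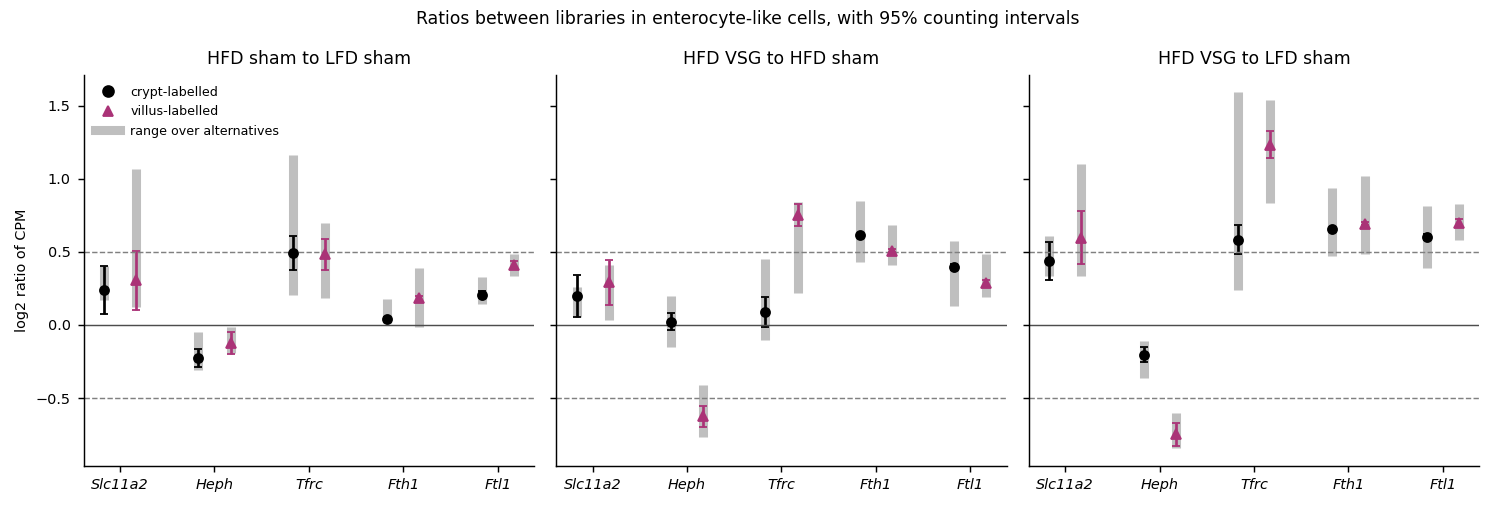
Log2 ratios of CPM in enterocyte-like cells for the 3 comparisons, crypt-labelled (circles) and villus-labelled (triangles), with 95% counting intervals, the range over processing alternatives in grey and dashed lines at -0.5 and 0.5. Fth1 and Ftl1 lie above 0.5 in HFD VSG against LFD sham in both fractions, and Heph lies below -0.5 only in the villus-labelled comparisons with HFD VSG.

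Enterocyte-like cells comprised 5 clusters whose shares differed between libraries. A cluster led by Ly6m and Ada, genes of the villus tip, made up 2.94% of the enterocyte-like cells in the HFD VSG villus-labelled library and 20.1% in the HFD sham crypt-labelled one, and the cluster led by 2210407C18Rik made up 54.3% and 31.7%. Within clusters, Fth1 was higher in HFD VSG than in HFD sham in 5 of 5 clusters of both fractions, by 0.48 to 1.31 in the crypt-labelled and 0.41 to 1.35 in the villus-labelled libraries. The difference was widest in the cluster led by Ly6m and Ada in both fractions, where Fth1 was 962 CPM in HFD sham and 2386 CPM in HFD VSG crypt-labelled cells. Ftl1 was higher in 5 of 5 clusters of each fraction as well. The unnamed cluster led by Ms4a18 and Car4 is not among these 5, and both genes varied less in it. Over its 6 libraries Fth1 spanned 4512 to 5771 CPM and Ftl1 1050 to 1407 CPM. In enterocyte-like cells the spans were 3848 to 6522 CPM and 990 to 1642 CPM. Tfrc, compared with LFD sham, was higher in 4 of 4 villus-labelled clusters with enough counts, by 0.83 to 1.92, and Heph was lower in 5 of 5, from -0.21 to -0.89. Compared with HFD sham, Tfrc was higher in the same number of villus-labelled clusters, 4 of 4, by 0.22 to 1.21, and Heph lay between -0.78 and 0.05, below 0 in 4 of 5. In the cluster led by Mbl2 both stood inside the limit, Tfrc at 0.22 (0.01 to 0.44) and Heph at -0.41 (-0.56 to -0.26), so these differences of the whole class did not hold at this size there. Tfrc in HFD sham against LFD sham ranged from 0.20 to 1.34 over 3 crypt-labelled clusters and from -0.38 to 1.17 over 4 villus-labelled ones. It passed the limit in the cluster led by Plb1 in both fractions, at 1.34 (1.03 to 1.65) and 1.17 (0.89 to 1.45), and in the villus-labelled cells of the cluster led by Mbl2, at 0.61 (0.32 to 0.91). For Tfrc in the crypt-labelled libraries, HFD VSG and HFD sham differed in either direction by cluster, from -0.34 to 0.45.

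Values of other cell types moved with some of these libraries. The 6 erythroid markers summed to 99.8 CPM in the HFD VSG villus-labelled enterocyte-like cells and to at most 0.984 CPM in the other 5 libraries, all 6 being present in the former. The 5 B-cell and plasma-cell markers summed to 56.0 CPM in LFD sham and 10.3 CPM in HFD sham villus-labelled cells and to at most 0.763 CPM elsewhere. The 11 Paneth markers summed to 890, 700 and 436 CPM in the crypt-labelled enterocyte-like cells of LFD sham, HFD sham and HFD VSG, and to 3585, 2868 and 653 CPM in the villus-labelled ones. That order, lowest in HFD VSG, was the reverse of the order of Slc11a2, Fth1 and Ftl1 in both fractions. The 9 goblet markers summed to 651, 329 and 261 CPM in the villus-labelled cells of the same groups and to 563, 386 and 396 CPM in the crypt-labelled ones. The 12 lymphocyte markers summed to 92.1 CPM in LFD sham and 46.9 CPM in HFD VSG villus-labelled cells and to 0.399 to 8.13 CPM elsewhere. The 10 early progenitor markers summed to 5632 CPM in the HFD VSG villus-labelled enterocyte-like cells, where Tfrc was highest, and to 1201 to 2459 CPM in the other 5 libraries. The enterocyte markers were lowest in that library, at 75450 CPM. The 10 markers of cycling cells summed to 88.1 CPM there, against 90.7 and 95.9 CPM in the other villus-labelled libraries. In the crypt-labelled libraries, where Tfrc was lower in each group, they summed to 46.9 to 53.4 CPM. Macrophages, which also express Slc40a1 and ferritin, left 0.249 to 0.852 CPM over 6 markers, of which 2 to 4 were detected in a library. That sum is not small beside Slc40a1, which stood at 0.196 to 1.21 CPM in enterocyte-like cells. Leaving out the 0.572% to 43.3% of enterocyte-like cells with any lymphocyte, B-cell or erythroid UMI kept the counts at 0, 4 and 8 of 10, with Tfrc at 1.13, Fth1 at 0.74 and Heph at -0.81 in HFD VSG against LFD sham villus-labelled cells. Genes typical of damaged droplets (Gm42418, Gm26917, Lars2 and AY036118) summed to 10204 and 14078 CPM in the HFD VSG libraries and 38656 to 71611 CPM in the sham libraries. With these genes left out of the total, Fth1 stood at 0.56 and 0.47 in HFD VSG against HFD sham, the latter inside the limit. The part of these other cells, less mature cells and droplets in the differences was otherwise not tested.

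Along a tip score, the share of a cell's UMIs from Ada, Nt5e, Slc28a2, Krt20, Pmp22, Clca4a and Klf4, enterocyte-like cells of each library were split into 3 parts of equal number. This is a range along a score and not a cell type, and the high part had a lower median depth than the low part in all 6 libraries. Tfrc was lower in the high than in the low part in 6 of 6 libraries and ordered low, middle, high in each. It was 58.5, 31.7 and 8.63 CPM from low to high in LFD sham crypt-labelled cells, and 224, 175 and 117 CPM in HFD VSG villus-labelled cells, where the log2 ratio of high to low was -0.94 against -2.76. Fth1 took the same order in 6 of 6 libraries, with log2 ratios from -1.81 in LFD sham crypt-labelled to -0.26 in HFD VSG villus-labelled cells. In the low part, Fth1 was 6822 and 6975 CPM in the HFD VSG libraries and 4693 to 4948 CPM in HFD sham and 4736 to 4905 CPM in LFD sham. In the high part the HFD VSG libraries held 4453 and 5820 CPM and the sham libraries 1350 to 3841 CPM. Ftl1 was lower in the high part in 5 of 6 libraries (-0.89 to -0.12), with 0.10 in the other, HFD VSG villus-labelled. Slc11a2 was lower in the high part in 6 of 6 (-1.15 to -0.08), though in order through all 3 parts in 1 of them. Heph went the other way in 5 of 6 libraries, by 0.08 to 0.54, with -0.01 in LFD sham crypt-labelled cells. The parts are not matched in score between libraries: the tip genes summed to 1822 CPM in the high part of HFD VSG villus-labelled cells and 12999 CPM in that of HFD sham crypt-labelled cells.

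**Figure D4:**
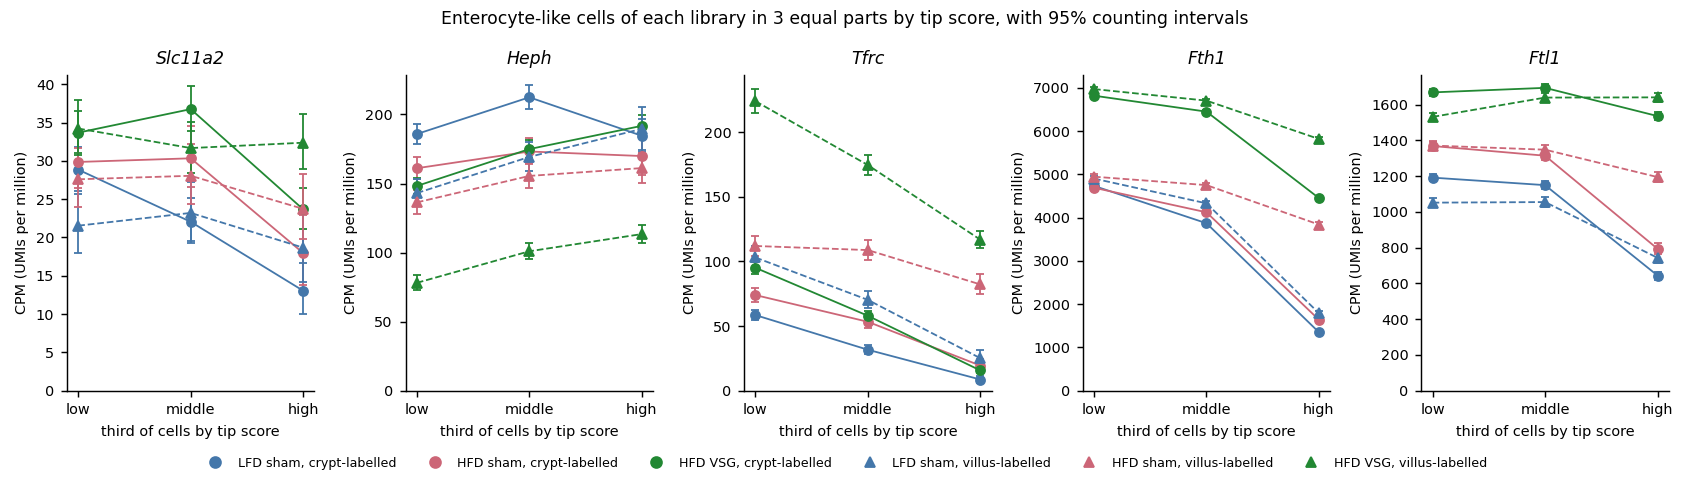
CPM of 5 genes in the low, middle and high parts of the enterocyte-like cells of each library by tip score, with 95% counting intervals, vertical axes from 0, solid lines for crypt-labelled and dashed lines for villus-labelled libraries. Tfrc and Fth1 are lower in each next part in all 6 libraries, and the HFD VSG villus-labelled library is highest for Tfrc and lowest for Heph in every part.

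Between fractions of the same group, 4 of 15 counted pairs of gene and group passed 0.5, a share near the 23.3% of all pairs. The background differed by group: 5.00% of genes were higher and 9.40% lower in the crypt-labelled cells of LFD sham, and 3.74% and 8.52% in HFD sham. In HFD VSG, the group of the Heph pair and of the widest Tfrc pair, these shares were 22.3% and 18.9%. Tfrc was lower in crypt-labelled than in villus-labelled enterocyte-like cells in all 3 groups, with log2 ratios of -0.87 (-0.99 to -0.75) in LFD sham, -0.86 (-0.96 to -0.75) in HFD sham and -1.52 (-1.59 to -1.45) in HFD VSG. Heph was higher in the crypt-labelled cells of HFD VSG, at 0.80 (0.74 to 0.86), and of LFD sham and HFD sham by 0.26 and 0.16. Fth1 and Ftl1 lay between -0.21 and 0.13. The villus-labelled libraries held the larger share of cycling progenitor-like cells in each group. That share was 2.72%, 4.20% and 6.65% in the crypt-labelled and 10.3%, 9.74% and 20.7% in the villus-labelled libraries of LFD sham, HFD sham and HFD VSG. The cluster led by Ly6m and Ada was 19.8%, 20.1% and 13.4% of crypt-labelled and 14.2%, 5.15% and 2.94% of villus-labelled enterocyte-like cells. Their part in the Tfrc difference was not tested.

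In other classes of the HFD VSG villus-labelled library the ratios sit on a shifted base: the median log2 ratio of all genes against HFD sham was -0.27 in stem-like, -0.25 in cycling progenitor-like and -0.26 in goblet-like cells. In cycling progenitor-like cells, Fth1 was higher in HFD sham than in LFD sham by 0.41 (0.37 to 0.46) and 0.38 (0.36 to 0.40) in the crypt-labelled and villus-labelled libraries, and differed between HFD VSG and HFD sham by 0.03 (-0.00 to 0.07) and 0.07 (0.05 to 0.08). Their Heph level in the HFD VSG villus-labelled library was 18.2 CPM, lower than in HFD sham, with a log2 ratio of -1.31 (-1.51 to -1.11). In the crypt-labelled libraries their Heph level was highest in HFD sham, at 65.1 CPM (146 of 2242935 UMIs). The counts were 85 of 2329063 UMIs in LFD sham and 284 of 6001888 in HFD VSG. In stem-like cells Fth1 was higher in HFD VSG than in HFD sham by 0.23 and 0.27. In goblet-like cells Tfrc was 90.03, 87.5 and 135 CPM in the crypt-labelled and 156, 159 and 96.9 CPM in the villus-labelled libraries of LFD sham, HFD sham and HFD VSG. HFD VSG was thus the highest of the crypt-labelled and the lowest of the villus-labelled libraries for goblet-like Tfrc. The same held for Tfrc in stem-like and cycling progenitor-like cells. In Paneth-like cells of the villus-labelled libraries, Cybrd1 differed by 0.22 between HFD sham and LFD sham and by 0.23 between HFD VSG and HFD sham. Between HFD VSG and LFD sham it differed by 0.44. The median log2 ratios of all genes in these cells were 0.19, -0.68 and -0.47 in the same order. The Cybrd1 ratios rest on 41 to 78 UMIs a library. The counting intervals of the levels overlapped, and no direction is read from these ratios.

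Of 43 further genes of iron handling (iron sensors, ferritin turnover, haem, other transporters, iron-sulphur and haem synthesis), 30 had enough UMIs in enterocyte-like cells of a fraction. Of their 59 counted pairs of gene and fraction, 6 were higher and 3 lower beyond 0.5 in HFD sham against LFD sham (15.3%), 4 higher and 10 lower in HFD VSG against HFD sham (23.7%), and 10 higher and 8 lower in HFD VSG against LFD sham (30.5%). These shares lay near those of all genes. The 6 iron regulators were below -0.5 in 6 of 6 cases in HFD VSG against HFD sham villus-labelled cells, with a median of -0.65, and in 0 of 6 in the crypt-labelled ones, with a median of 0.14. Of all genes, 16.5% and 2.37% lay below -0.5 in these fractions. Genes of these lists beyond 0.5 the same way in both fractions are named next, and the share of all genes that did so was not counted. Epas1, which encodes the hypoxia factor HIF-2α that drives Slc11a2, Cybrd1 and Slc40a1 transcription in the gut, was lower in HFD sham than in LFD sham, with log2 ratios of -1.15 (-1.36 to -0.95) and -0.73 (-1.01 to -0.45) and lower in HFD VSG than in LFD sham, with log2 ratios of -0.95 (-1.10 to -0.80) and -1.46 (-1.74 to -1.18), crypt-labelled first. Flvcr2, a transporter first described for haem, was higher in HFD sham than in LFD sham by 1.08 and 1.68, and Blvrb, a biliverdin reductase, by 0.52 and 0.51. No gene of these lists passed 0.5 the same way in both fractions in HFD VSG against HFD sham. In the crypt-labelled libraries, 0 of 29 counted genes passed it in either direction, where 6.79% of all genes were higher and 2.37% lower.

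Of 8 hypoxia-inducible genes, which form 13 counted pairs, 6 were higher and 1 lower beyond 0.5 in HFD sham against LFD sham, 1 higher and 3 lower in HFD VSG against HFD sham, and 8 higher and 4 lower in HFD VSG against LFD sham. Ankrd37 was higher than in LFD sham by 1.17 and 1.89 in HFD sham and by 1.38 and 2.62 in HFD VSG, crypt-labelled first. Egln3, a prolyl hydroxylase that marks these factors for decay, was higher than in LFD sham by 1.25 and 1.44 in HFD sham and by 1.39 and 0.81 in HFD VSG. Bnip3 and Pdk1 were higher in HFD VSG than in LFD sham in both fractions, by 0.62 to 0.73, whereas Vegfa was lower, with log2 ratios of -0.78 and -1.64. These counts are 53.8%, 30.8% and 92.3% of the pairs, in both directions, against the 13.3%, 21.1% and 27.7% of all genes.

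Over 41 sums of class and library from the named epithelial classes, the genes most like each member were picked by Pearson's r of log2(CPM + 1) among 8188 genes. These points share libraries and depth, and the values are a description. Slc11a2 lay nearest to Myo1d (r = 0.93), Casp1 (0.93) and Pitpna (0.93), and Heph to Crip1 (0.95), Lap3 (0.94) and C77080 (0.94). Tfrc lay nearest to Aldh1b1 (0.95), Atad3a (0.95) and Oat (0.94), all mitochondrial proteins. Fth1 lay nearest to Aamdc (0.95), Dbi (0.95) and Marc2 (0.94), and Ftl1 to Edf1 (0.93), Atp6v0e (0.92) and Plac8 (0.92). No member was among the 3 nearest of another: r was 0.71 between Fth1 and Ftl1, 0.81 between Fth1 and Slc11a2 and 0.25 between Tfrc and Heph. Cybrd1 and Slc40a1 were too low for this measure.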

How the data were processed

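The authors aligned 10x Genomics 3′ reads with Cell Ranger 6.0.0 to mm10, per the labels (headers of the unfiltered tables, the source of cell-free droplets, name Cell Ranger 4), and deposited raw UMI counts per gene and barcode for each of 6 libraries, unnormalised. Barcodes with at least 750 genes and at most 20% mitochondrial UMIs were kept, and doublets were removed by a neighbour score at 0.8% per 1000 barcodes (4794 removed). Libraries were integrated with SCTransform v2 and Seurat 5.3.0 (R 4.3.3; 2000 genes without the iron genes, 30 components, resolution 0.4). Clusters were named where over 50% and at least 3 of a class's fixed markers stood at 2 times the median cluster or above in at least 10% of cells, unless genes of damaged droplets or more markers of another class were among the 10 leading genes, or depth was low. UMIs were summed per class (at least 20 cells). Sums under 3 UMIs were set to 3 in ratios, and the background was all genes averaging 50 UMIs or more over the libraries of a fraction. Intervals are exact Poisson or Clopper-Pearson at 95%, and the limit given for a count of 0 is 3 counts. The ratio and subtraction steps were tested on simulated data. Named genes are the 7 members, pathway genes beyond 0.5 in both fractions the same way, and the 3 genes most like a member. The members, lists and limits were chosen with earlier results of these data known. With 1 pooled library per group and fraction, no test between groups was run, and none over the 3 pairs of fractions. In all, 11 alternatives were planned and 4 added after seeing the data.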

Additional observations from a re-analysis of the deposited data

Results flagged for a closer look

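Tfrc in goblet-like cells differed in opposite directions in the 2 fractions, and the difference between fractions was not tested. This pattern was not particular to goblet-like cells. HFD VSG was also highest of the crypt-labelled and lowest of the villus-labelled libraries for Tfrc in stem-like and cycling progenitor-like cells. In villus-labelled goblet-like cells, 3 of 5 counted members lay below -0.5 and 1 above 0.5 against HFD sham, and 3 and 0 against LFD sham. The all-gene medians there were -0.26 and -0.28. The share of all genes beyond 0.5 in these cells was not counted, so the members are not set apart from this shift. Against HFD sham, goblet-like Tfrc in HFD VSG was higher by a log2 ratio of 0.63 (0.22 to 1.05) in the crypt-labelled libraries. It was lower at -0.72 (-0.87 to -0.56) in the villus-labelled ones. Against LFD sham, the ratios were 0.59 (0.28 to 0.90) and -0.69 (-0.83 to -0.54). The crypt-labelled values rest on 62 to 248 Tfrc UMIs, and the first of them was 0.42 after subtraction of free RNA. The goblet-like cluster that also met the cycling markers gave 47 crypt-labelled cells in HFD sham and 102 in HFD VSG, and the shallow one 48 and 60. In the villus-labelled libraries they gave 253 and 268, and 86 and 31. The part of this mix in the differences was not tested.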

How the results depend on the processing

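No paired analysis was possible because, between groups, each fraction had 1 library per group and no replicate numbers. The fractions do form 1 pair in each of the 3 groups; their ratios were described per group, and no test over the 3 pairs was run. The number of members beyond 0.5 in HFD sham against LFD sham, 0 of 10, was 1 with a minimum of 1500 genes, with median-of-ratios scaling, at resolution 0.8 and within cluster 2, and 2 with either subtraction of free RNA, a maximum of 10% mitochondrial UMIs, cells thinned to 1500 UMIs and iron genes kept for clustering. Each of these calls was Tfrc, higher in HFD sham, in 1 or both fractions. The count of 4 in HFD VSG against HFD sham was 2 with the stated fractions subtracted and within cluster 0 (led by 2210407C18Rik). It was 3 with median-of-ratios scaling, within cluster 2 (led by Mbl2), with a fraction of 0.1 subtracted, with mitochondrial or damaged-droplet genes left out of the total, and with either stricter cell filter (1500 genes or 10% mitochondrial UMIs), and 5 of 9 with thinned cells. The 3 within cluster 2 were Fth1 in both fractions and Ftl1 in the crypt-labelled libraries (0.52), while Tfrc (0.22) and Heph (-0.41) in the villus-labelled ones were inside the limit. The count of 8 in HFD VSG against LFD sham was 5 within cluster 0, 6 with a maximum of 10% mitochondrial UMIs or median-of-ratios scaling and 7 within cluster 2 or, of 9, with thinned cells. The share of all pairs beyond 0.5, with the comparisons in the order above, was 13.3%, 21.1% and 27.7% in the main setting. It was 17.68%, 24.3% and 27.75% with the stated fractions subtracted, and 13.88%, 20.06% and 27.17% with a fraction of 0.1 subtracted. With a minimum of 1500 genes it was 13.37%, 20.8% and 27.24%, and the shares under the other settings are not given here. Without the filter on low values the counts were 4, 8 and 11 of 14 and, between fractions, 8 of 21, the added pairs of HFD sham against LFD sham being Cybrd1 and Slc40a1. No ratio beyond 0.5 of Slc11a2, Heph, Tfrc, Fth1 or Ftl1 changed sign under these alternatives, whereas ratios of Cybrd1 and Slc40a1 in enterocyte-like cells did, and no direction is read from them. Per library, those cells held 0 to 5 UMIs of Cybrd1 and 4 to 38 of Slc40a1. The 4 alternatives on totals, other cells and clusters were chosen after seeing the data.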
